A study of Mus musculus with 8 samples.

Results

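This report covers the non-coding snoRNA host genes Gas5, Snhg1, Snhg3, Snhg5, Snhg6, Snhg7, Snhg8 and Snhg12. They were chosen by name as a list and by no rule on their values, but with earlier results of these data known. Of these 8 genes, 6 were among the 21915 Ensembl genes of the mRNA table, and 5 of the 6 had enough counts to be tested. Snhg6 and Snhg8 have no gene of that name or of a RefSeq synonym in the mm9 annotation used here, and are described only through their snoRNAs.

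A snoRNA host gene carries small nucleolar RNAs in its introns. After splicing, the excised intron is trimmed to the mature snoRNA, whereas the joined exons leave as a spliced RNA that in these genes codes for no protein. Box C/D snoRNAs, named Snord, guide the 2′-O-methylation of ribosomal RNA, and box H/ACA snoRNAs, named Snora, guide its pseudouridylation. Host transcripts often begin with a 5′ terminal oligopyrimidine tract (5′ TOP), a stretch of C and T shared with the mRNAs of ribosomal proteins, and several are degraded by nonsense-mediated decay (NMD) as they meet ribosomes. The level of a spliced host RNA and that of its snoRNAs are therefore separate readouts of one transcription unit.

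The study sequenced 8 samples. Polyadenylated RNA came from 2 control and 2 Kap1 knockdown (KD) samples of Hepa 1-6, a mouse hepatoma line, collected 5 days after transduction. KD cells carried an shRNA against Kap1, the corepressor encoded by Trim28. The controls carried a control shRNA plasmid by the labels and the empty pLKO vector by the methods, and all were puromycin selected. Small RNA came from 1 control and 1 Kap1 KD sample of the same line, and from primary hepatocytes of 1 wild-type and 1 Kap1 knockout (KO) sample. How Kap1 was deleted and the age of the animals are not given in the sources used here.

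The mRNA libraries held between 41566888 and 53605115 counts. Trim28 stood at 456 and 575 CPM (counts scaled to a common library size by TMM) in control cells and at 106 and 78.9 in Kap1 KD cells, so that both KD samples lay below both controls. Hepatoma genes were present, with Alb at 1580 and 1037 CPM in control and 975 and 441 CPM in the Kap1 KD samples and Afp between 445 and 750 CPM, but Cps1, Fga, Ttr and Serpina1a did not exceed 0.22 CPM. Markers of leukocytes, endothelium, stroma and bile ducts summed to between 36.1 and 49.7 CPM over the 10 genes listed. Most of this sum was the bile duct marker Sox9, at 28.7 to 40.2 CPM. Cd68 had between 3.19 and 7.42 CPM, and Ptprc, Kdr and Col1a2 stood at or below 0.17 CPM. The 49 loci annotated as 7SK, a short RNA with no poly(A) tail, summed to 43.0 CPM in Kap1 KD replicate 2 and to between 1.92 and 2.42 CPM in the other 3 libraries. In these bulk samples, fewer cells of a type and less RNA per cell cannot be told apart. The labels do not say whether the 2 samples of a group came from separate cultures, so p-values measure the spread between samples, which may be technical.

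In mm9, Gas5 (ENSMUSG00000053332) spans chromosome 1 from 162964553 to 162968670 on the plus strand and holds 9 annotated snoRNAs, all of the C/D class. Snhg1 (ENSMUSG00000090867), on chromosome 19 from 8797986 to 8800932 on the plus strand, holds 8. Snhg12 (ENSMUSG00000086290), on chromosome 4 from 131864593 to 131866939 on the plus strand, holds 4. Snhg7 (ENSMUSG00000091299), on chromosome 2 from 26492697 to 26495764 on the minus strand, holds 2. Snhg5 (ENSMUSG00000032424), on chromosome 9 from 88415894 to 88417721 on the minus strand, holds 2 copies of SNORD50. Snhg3 (ENSMUSG00000085241), on chromosome 4 from 131903929 to 131909601 on the minus strand, holds Snora73a and Snora73b. Because the annotation includes transcripts that retain introns, 22 of these 27 snoRNAs lie wholly inside annotated host exons, 1 lies partly in them and 4 are intronic. A read over one of the 22 therefore cannot be told apart from a read of the unspliced host.

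**Figure D1:**
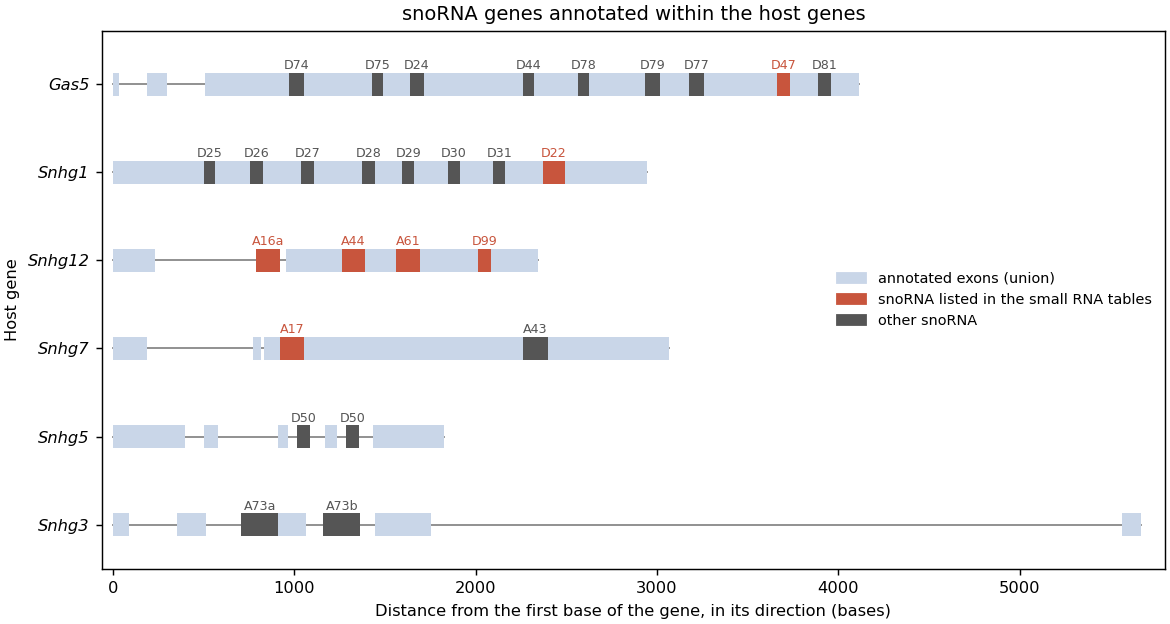
Each row is a host gene drawn to scale from its first base, in its own direction, with distance in bases on the x axis. Pale boxes are the union of annotated exons, red boxes are snoRNAs that the small RNA tables list, and dark boxes are the other annotated snoRNAs, with D for Snord and A for Snora. Snhg12 is the host of which all 4 snoRNAs were listed, whereas Gas5 and Snhg1 each had 1.

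Of the 29 snoRNAs assigned to the hosts, 21 of the C/D and 8 of the H/ACA class, the small RNA tables listed 9. For all 9 the length in the table equalled the annotated length. Snord87 was assigned to Snhg6 and Snora24 to Snhg8 from their place in RefSeq, and Snora24 began 270 bases from the RefSeq start of Snhg8 in mm9. The sequences on which the small RNA results turn follow, read 5′ to 3′ from the mm9 genome on the strand of the gene. Capitals mark box C (TGATGA) and box D (CTGA) in the C/D class, and the ACA box near the 3′ end in the H/ACA class.
Snord47 of Gas5, chr1:162968213-162968289, plus strand: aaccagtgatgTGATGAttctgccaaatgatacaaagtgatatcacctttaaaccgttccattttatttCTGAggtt
Snord99 of Snhg12, chr4:131866606-131866679, plus strand: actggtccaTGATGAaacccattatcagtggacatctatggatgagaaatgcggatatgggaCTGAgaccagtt
Snord22 of Snhg1, chr19:8800356-8800481, plus strand: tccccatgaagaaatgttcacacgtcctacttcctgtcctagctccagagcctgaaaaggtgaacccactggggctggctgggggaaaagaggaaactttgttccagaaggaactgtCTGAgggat
Snora44 of Snhg12, chr4:131865856-131865984, plus strand: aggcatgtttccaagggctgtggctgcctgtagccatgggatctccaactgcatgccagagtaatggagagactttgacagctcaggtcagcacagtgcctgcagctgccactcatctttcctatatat
Snora16a of Snhg12, chr4:131865380-131865515, plus strand: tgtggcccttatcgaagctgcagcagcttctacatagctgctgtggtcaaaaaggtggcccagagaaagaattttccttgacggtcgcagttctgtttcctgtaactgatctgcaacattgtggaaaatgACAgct
Snora17 of Snhg7, chr2:26494710-26494841, minus strand: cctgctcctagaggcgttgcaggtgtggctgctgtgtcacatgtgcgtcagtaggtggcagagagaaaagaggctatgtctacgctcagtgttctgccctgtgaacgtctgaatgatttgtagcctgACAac
Snora24 of Snhg8, chr3:123210855-123210984, minus strand: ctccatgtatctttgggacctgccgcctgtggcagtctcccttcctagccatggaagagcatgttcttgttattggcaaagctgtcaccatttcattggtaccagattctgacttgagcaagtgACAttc
Box C was sought near the 5′ end and box D near the 3′ end of each C/D sequence, on its own strand. Among the 21 C/D snoRNAs, 17 held TGATGA and 21 held CTGA there, and Snord22, at 126 bases, was among those without TGATGA. Among the 8 H/ACA snoRNAs, 7 held ACA within the last 9 bases, and Snora44 did not hold it in its annotated form.

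RefSeq (GRCm38.p6) gave promoters for 7 of the 8 genes, with 2 for Gas5, and each of these 8 promoters had 1 exact match in mm9. They are shown for the 5 hosts that could be tested, because these had alike profiles across the samples, from 40 bases before to 20 bases after the RefSeq start, with the longest C/T run near the start and, where present, TATAA in capitals.
Gas5, second promoter: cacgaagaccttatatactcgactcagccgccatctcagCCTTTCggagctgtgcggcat
Snhg1: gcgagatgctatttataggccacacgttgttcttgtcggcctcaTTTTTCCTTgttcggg
Snhg5: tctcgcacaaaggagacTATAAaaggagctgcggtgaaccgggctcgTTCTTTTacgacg
Snhg7: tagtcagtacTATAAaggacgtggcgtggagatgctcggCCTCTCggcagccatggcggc
Snhg12: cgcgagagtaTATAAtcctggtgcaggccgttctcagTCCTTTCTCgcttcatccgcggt
The longest unbroken C/T run reaching within 10 bases of the start was 9 bases in Snhg1 and Snhg12, 7 in Snhg5 and Snhg8, 6 in Snhg7 and at the second Gas5 promoter, 5 in Snhg3 and 3 at the first Gas5 promoter. The median over all 32851 promoters was 4 bases, and 9.75% of them had a run of 9 or more. The letters TATAA began 40 to 20 bases before the start, on the gene's strand, in Snhg5, Snhg7, Snhg8 and Snhg12, against 3.52% of all promoters. These matches describe letters in a window and do not show a used start site or a bound factor.

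The first comparison asks whether the polyadenylated RNA of the hosts changed when Kap1 was depleted in Hepa 1-6 cells. Because the annotated exons include retained introns, spliced and unspliced host RNA were counted together. Every host that could be tested was lower in Kap1 KD than in the control of the same number, by small amounts, and none passed the test. In both groups the sample numbered 2 lay far below the other, so that control and KD samples interleaved.

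Gas5, the growth arrest-specific host of 9 C/D snoRNAs, was the most abundant. The controls had 3639 and 1500 counts of it and the Kap1 KD samples 2244 and 1200, or 65.3, 30.2, 52.7 and 25.7 CPM in that order. The KD sample numbered 1 stood above the control numbered 2, so the groups overlapped. On the log2 scale Kap1 KD differed from control by -0.29 (standard error 0.52), and the quasi-likelihood test of edgeR gave a p of 0.9999 after Benjamini-Hochberg adjustment over all tested genes.

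Snhg1, whose introns carry SNORD25 to SNORD31 and Snord22, had 692 and 223 counts in the controls, against 356 and 159 after Kap1 depletion. These were 12.4, 4.49, 8.36 and 3.40 CPM. The log2 fold change was -0.53 (standard error 0.66), the lowest among the hosts and within its own error. Snhg5, host of the SNORD50 copies, stood at 14.8 and 6.49 CPM in control and 10.2 and 4.64 CPM in Kap1 KD cells, from 217 to 823 counts. Its log2 fold change was -0.52 (standard error 0.57), again with 1 KD sample between the controls.

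Snhg12, which carries 3 H/ACA snoRNAs and Snord99, had 12.03 and 6.59 CPM in control and 9.27 and 5.32 CPM in Kap1 KD cells, from 249 to 670 counts. It had the smallest gap between replicates of the tested hosts and a log2 fold change of -0.35 (standard error 0.44). Snhg7, host of Snora17 and Snora43, was the least abundant of those tested, with 5.91 and 2.40 CPM in control and 4.58 and 1.84 CPM in Kap1 KD cells. Its log2 fold change was -0.38 (standard error 0.64). The adjusted p was 0.9999 for each of these genes in the same edgeR test.

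Snhg3, host of Snora73a and Snora73b, was listed with 1 count in Kap1 KD replicate 2 and 0 in the other 3 libraries, and was not tested. Of its 986 exonic bases, 135 are shared with Rcc1 on the same strand and 705 with Gm17300 on the opposite strand. The effect of these overlaps on the count was not tested, and the strand setting of the counting is not given in the sources used here.

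**Figure D2:**
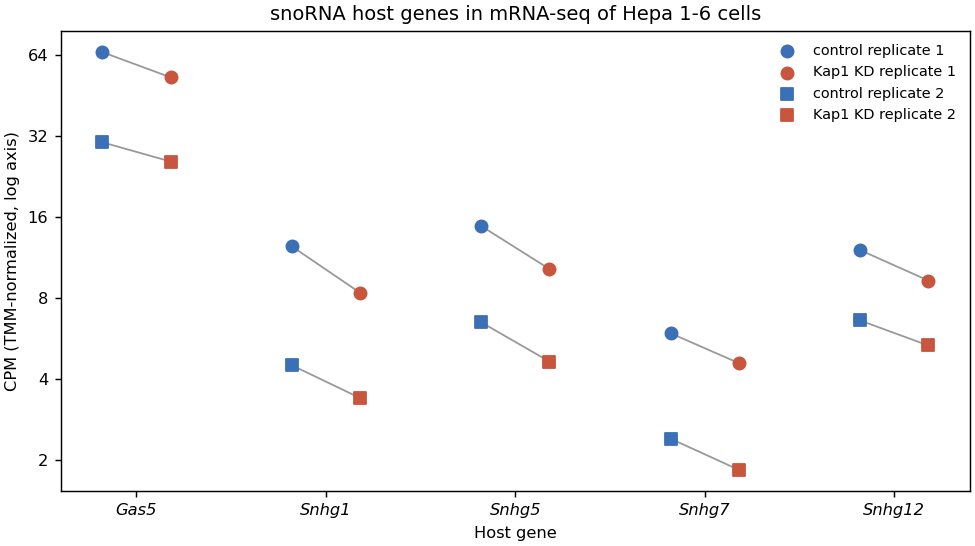
TMM-normalized CPM of the 5 tested host genes in each mRNA-seq sample, on a log axis. Circles are samples taken as replicate 1 and squares are replicate 2, blue for control and red for Kap1 KD, and lines join samples of the same number. Each line falls to the right, and each square lies below both circles of its gene.

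Over the hosts, 0 of 5 passed the 1.5-fold change and adjusted p under 0.05 that defined a call, as did 0 of all 14142 tested genes (0%) in this fit, which has no term for the replicate number. Trim28 itself, at -2.48 on the log2 scale (standard error 0.25), was not called in it either, at an adjusted p of 0.9999, so that a missed call in this edgeR fit says little about a gene. The same edgeR test gave an unadjusted p under 0.05 for 0 of the 5 and for 185 of all tested genes (1.31%), and DESeq2, run as an alternative, called 2 genes higher and 1 lower with no host among them. The median log2 fold change was -0.38 over the 5 hosts and -0.016 over all tested genes. Left without control replicate 1, the 5 hosts had a median of 0.37, with each value above 0, and left without Kap1 KD replicate 2 a median of 0.0062. Left without control replicate 2 the median was -0.86, and without Kap1 KD replicate 1 it was -1.17. Each omission leaves the replicate numbers unbalanced between the groups, so these medians also include the difference between replicates. Beside the hosts, the 6 tested hepatocyte markers had a median log2 fold change of -0.73. All 6 were lower in both same-numbered comparisons, against 38.1% of all tested genes. In 5 of the 6 both KD samples lay below both controls, against 10.6% of all tested genes. The part of these markers in the host values was not tested. With 2 samples against 2, an exact two-sided permutation test cannot give a p below 0.333.

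Between samples of the same number, Kap1 KD minus control on a log2 scale of CPM plus 0.1 was -0.31 and -0.24 for Gas5, -0.57 and -0.39 for Snhg1, and -0.53 and -0.48 for Snhg5. It was -0.36 and -0.37 for Snhg7, and -0.37 and -0.30 for Snhg12. Kap1 KD samples thus held between 67.3% and 84.8% of the level in the control of the same number. All 5 were lower in both such comparisons, as were 38.1% of all tested genes. In none of the 5 did both KD samples lie below both controls, against 10.6% of all tested genes.

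The difference between samples of one group was larger than that between groups. Replicate 2 minus replicate 1 on the same scale was, for Gas5, -1.11 within the controls and -1.04 within the Kap1 KD samples. The corresponding differences were -1.45 and -1.27 for Snhg1, -1.17 and -1.13 for Snhg5, -1.27 and -1.27 for Snhg7, and -0.86 and -0.79 for Snhg12. For 4 of the 5 hosts replicate 2 was at least 2-fold below replicate 1 in both groups, against 5.23% of all tested genes. All 5 hosts had the order control 1, Kap1 KD 1, control 2 and Kap1 KD 2 from high to low, against 20.5% of all tested genes. Both of these rules were chosen after the values were seen.

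**Figure D3:**
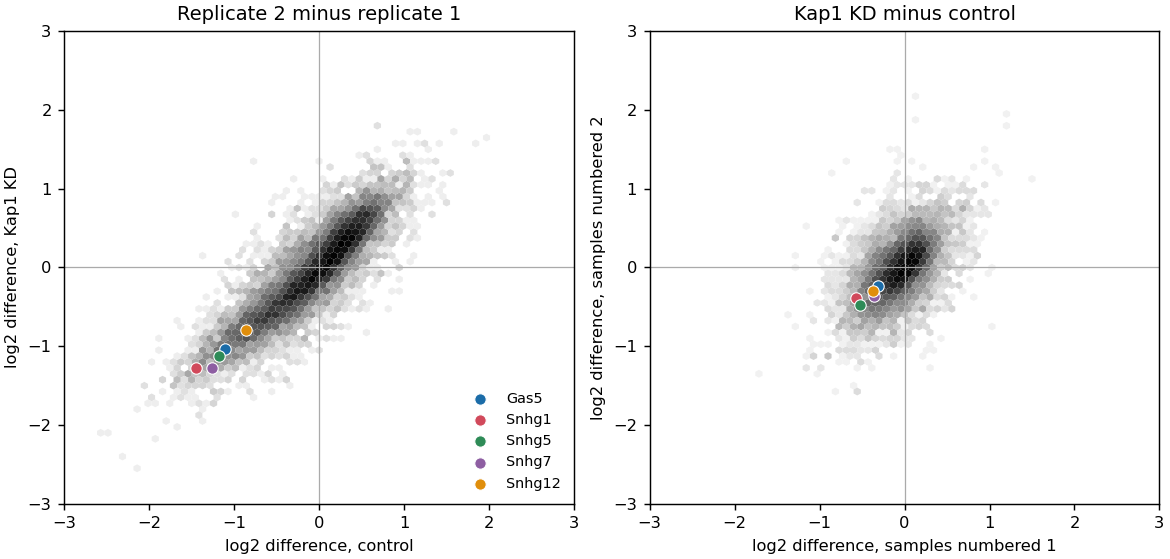
Log2 differences of CPM plus 0.1 for each tested gene in grey, darker where more genes lie, and for the 5 hosts in colour; genes beyond 3 on either axis are not drawn. The left panel sets replicate 2 minus replicate 1 in control cells (x) against the same in Kap1 KD cells (y), and the hosts lie at its lower left, between -0.79 and -1.45. The right panel sets Kap1 KD minus control for samples numbered 1 (x) and 2 (y), where the hosts lie between -0.24 and -0.57.

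The replicate difference moved with base composition across genes. Over 14102 tested genes with a known GC content, replicate 2 minus replicate 1 correlated with exonic GC content at a Spearman rho of 0.60 in control and 0.68 in Kap1 KD cells, given as a description across genes that share these libraries. The change on Kap1 KD correlated with GC at 0.21 and 0.33. The exons of the tested hosts held between 40.7% GC (Snhg1) and 49.7% GC (Snhg7), all below the median of 49.8% over all tested genes. When genes were split by GC content into 10 bins of equal size, the bin with the lowest GC, which holds Snhg1, had a median replicate difference of -0.81 in control cells.

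The hosts lay below the median of genes of like GC content. In control cells their replicate difference less the median of their own GC bin lay between -0.62 (Gas5) and -1.28 (Snhg7). Less the same kind of median, the mean change on Kap1 KD was -0.17 for Gas5, -0.29 for Snhg12, -0.33 for Snhg1, -0.35 for Snhg7 and -0.43 for Snhg5. The part of base composition in the host values beyond this was not tested.

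**Figure D4:**
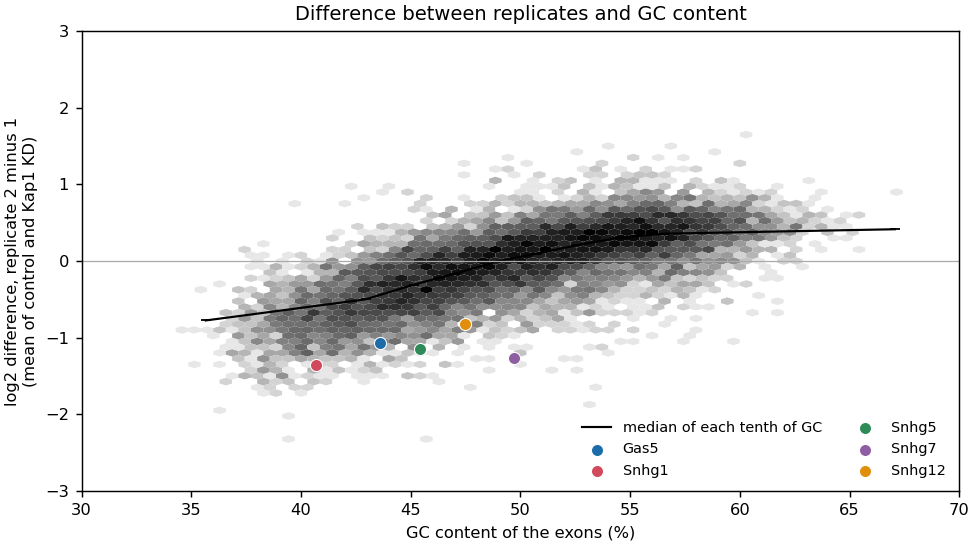
Exonic GC content (x, in %) against the mean over control and Kap1 KD of the log2 difference replicate 2 minus replicate 1 (y) for the tested genes in grey and the 5 hosts in colour; genes outside the axes are not drawn. The black line joins the medians of 10 bins of equal size by GC content. Every host lies below the line.

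Per kilobase of annotated exon, the order of the host levels in control cells was Gas5, Snhg5, Snhg12, Snhg1 and Snhg7. Gas5 had 12.7 ± 6.60 CPM per kilobase (SD, n = 2) and Snhg5 10.7 ± 5.90 (SD, n = 2). Snhg12 had 5.73 ± 2.36 (SD, n = 2), Snhg1 2.87 ± 1.90 (SD, n = 2) and Snhg7 1.68 ± 1.01 (SD, n = 2). Each neighbouring pair in this order differed by less than the larger of its SDs, except Snhg12 and Snhg1, which differed by more than either SD. These SDs include the replicate difference that the hosts shared, and the order was the same in every mRNA sample. In Kap1 KD cells the order was the same, from 10.4 ± 5.08 CPM per kilobase (SD, n = 2) for Gas5 to 1.301 ± 0.786 (SD, n = 2) for Snhg7. By the length of the longest transcript, Snhg12 stood at 9.98 CPM per kilobase in control cells. Retained introns enter these lengths unequally, as annotated exons cover all 2947 bases of the Snhg1 span but 993 of the 1828 bases of Snhg5. The part of such annotation in the order was not tested.

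Among 8758 other tested genes with a mean of 10 CPM or more, those whose log2 CPM, centred over the 4 samples, lay nearest to the mean profile of the hosts were Dmtf1, BC003331, Zc3h12c, Slc4a7 and Hells, at Euclidean distances from 0.023 to 0.079. Their exons held between 39.0% and 43.0% GC. The hosts themselves lay at distances between 0.11 and 0.32 from that profile, and 295 of the 8758 genes lay within the larger distance.

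The genes around the hosts in snoRNA metabolism were read from lists fixed with earlier results of these data known. Of 19 other non-coding hosts or long non-coding RNAs listed, 11 were tested, none was called, and their median log2 fold change was -0.15. Lower in both same-numbered comparisons were 5 of the 11, against 38.1% of all tested genes. The Mir17hg cluster host had the lowest value, -0.34 (standard error 0.997), from 3.95 and 0.99 CPM in control and 3.31 and 0.62 CPM in Kap1 KD cells. Zfas1, listed as 1500012F01Rik and host of C/D snoRNAs, had -0.32 (standard error 0.37). In 3 of the 11, replicate 2 was at least 2-fold below replicate 1 in both groups, against 5.23% of all tested genes.

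Protein-coding 5′ TOP genes that also carry snoRNAs mostly had values of the opposite sign. Of 24 tested, 0 were called and 21 had a log2 fold change above 0, against 47.1% of all tested genes. In both same-numbered comparisons 19 were higher, against 32.8% of all tested genes, and the median was 0.17, against -0.016 over all. Rps2, a protein of the small ribosomal subunit, had 0.47 (standard error 0.29), and Rpl13, of the large subunit, had 0.36 (standard error 0.19). Their median replicate difference was 0.21 in control cells, where that of the non-coding hosts was -1.17. Whether the lists differ was not tested.

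The proteins that bind and build snoRNPs showed no call. The 8 core proteins tested had a median log2 fold change of 0.062, with 0.17 for the methyltransferase Fbl and 0.16 for Nhp2 of the H/ACA particle. The 13 assembly factors had a median of 0.077, with 0.26 for Naf1, which binds nascent H/ACA particles, and 0.16 for the ATPase Ruvbl2. Among 14 NMD factors the median was 0.0043, with -0.35 for Upf3b and -0.25 for Magoh. The 8 growth regulators of 5′ TOP mRNAs had a median of -0.015, from -0.85 for Mycn, at no more than 1.85 CPM, to 0.20 for Myc.

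The mRNA table also lists 283 of 1552 annotated snoRNA genes, 5 of which belong to the hosts, although the libraries were made from polyadenylated RNA. At the locus of Snora24 the controls had 77 and 32 counts and the Kap1 KD samples 39 and 29, a log2 fold change of -0.41 (standard error 0.52). Snora16a had 26, 9, 20 and 4 counts in the same order, and the locus of Snord87 had 30, 9, 24 and 4. Both had at most 9 counts in the samples numbered 2 and between 20 and 30 in the others. The SNORD50 copies of Snhg5 had 6 counts or fewer in every library. None of the 22 snoRNAs inside host exons is listed in this table, which holds no row of zeros. Of all snoRNA genes that overlap an exon of another gene 5.45% are listed, against 19.2% of the others.

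The second comparison sets the hosted snoRNAs in small RNA of Kap1 KD against control Hepa 1-6 cells, with 1 library each and thus no replicate check. In these cells 6 of the 9 hosted snoRNAs had a higher scaled count after Kap1 KD and 3 a lower one, and the direction differed between snoRNAs of one host. Summed over the listed tRNA and snoRNA sequences, the control library had 26249204 counts and the Kap1 KD library 29223566, which is not the depth of sequencing. Ratios are log2 ratios of counts scaled by TMM with 0.5 added, and brackets give exact 95% intervals from counting error only.

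Among the C/D snoRNAs, Snord47 of Gas5, the first sequence printed above, had 319714 counts before and 418612 after Kap1 depletion, a log2 ratio of 1.04 (1.03 to 1.05). Snord99 of Snhg12 had 759884 and 779351 counts and a ratio of 0.69 (0.68 to 0.69), and made up 3.02% of all snoRNA counts in control cells. Both exceeded the median of 0.59 over the other Snord sequences. Snord22 of Snhg1, with 15625 and 11781 counts, stood at 0.24 (0.21 to 0.28), and Snord87 of Snhg6, with 3921 and 2796 counts, at 0.16 (0.092 to 0.23), both below that median.

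Among the H/ACA snoRNAs, Snora44 of Snhg12 had 18645 and 18909 counts and a log2 ratio of 0.67 (0.64 to 0.70), whereas its neighbour Snora16a had 7962 and 4844 counts and a ratio of -0.066 (-0.12 to -0.014). Snora61 of the same host lay between them at 0.37 (0.35 to 0.40), from 35003 and 28865 counts. Snora24 of Snhg8, with 4697 and 2448 counts, had -0.29 (-0.36 to -0.22). Snora17 of Snhg7 had the lowest ratio of the 9, -0.65 (-0.71 to -0.60), from 10198 and 4130 counts, and ranked 32 of 33 Snora sequences. The median over the other Snora sequences was 0.34.

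In these cells 3 of the 9 hosted snoRNAs were at least 1.5-fold higher, against 39.8% of all 93 snoRNA sequences, and 1 was at least 1.5-fold lower, against 2.15%. The median log2 ratio was 0.24 over the 9 and 0.49 over the other 84. Scaling by the total of listed counts lowered every ratio by the same step, from a median over all sequences of 0.022 to -0.78, and left 1 of the 9, Snord47, above 0. Directions are therefore relative to the bulk of the listed tRNA and snoRNA sequences.

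The third comparison makes the same contrast in primary hepatocytes, Kap1 KO against wild type. Snord47 and Snora44 had the highest ratios of the hosted snoRNAs, and 4 of the 9 were lower. The listed sequences held 3028467 counts in the wild-type and 11006899 counts in the Kap1 KO library, so the unscaled counts differ in size from the start, and each hepatocyte library has a pair of columns with identical values that were counted as 1 library.

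Snord47 had 124033 counts in wild-type and 521054 in Kap1 KO hepatocytes, a log2 ratio of 1.37 (1.36 to 1.38). Snord99, the second most counted snoRNA in wild-type hepatocytes, had 564670 and 1737884 counts and a ratio of 0.92 (0.92 to 0.93), or 18.9% and 15.9% of all snoRNA counts. Snord87 had 673 and 1482 counts and a ratio of 0.44 (0.31 to 0.58). Snord22, with 4192 and 4632 counts, had -0.55 (-0.61 to -0.49) and ranked 61 of 62 Snord sequences. The median over the other Snord sequences was 1.13, so that Snord87 and Snord22 were far below it and Snord99 somewhat below.

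Snora44 had 1351 and 4842 counts and a log2 ratio of 1.14 (1.06 to 1.23), the highest of all 33 Snora sequences. Snora61 stood at 0.22 (0.17 to 0.26), from 7124 and 13414 counts. The 3 lower ones were Snora17 at -0.29 (-0.34 to -0.24), Snora16a at -0.44 (-0.47 to -0.42) and Snora24 at -0.54 (-0.64 to -0.44), and the median over the other Snora sequences was 0.24. In hepatocytes 3 of the 9 hosted snoRNAs were at least 1.5-fold higher, against 58.9% of 95 snoRNA sequences, and 0 were at least 1.5-fold lower, against 4.21%. Scaling by total counts again left only Snord47 above 0 among the 9, with all sequences shifted from a median of -0.022 to -1.19.

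**Figure D5:**
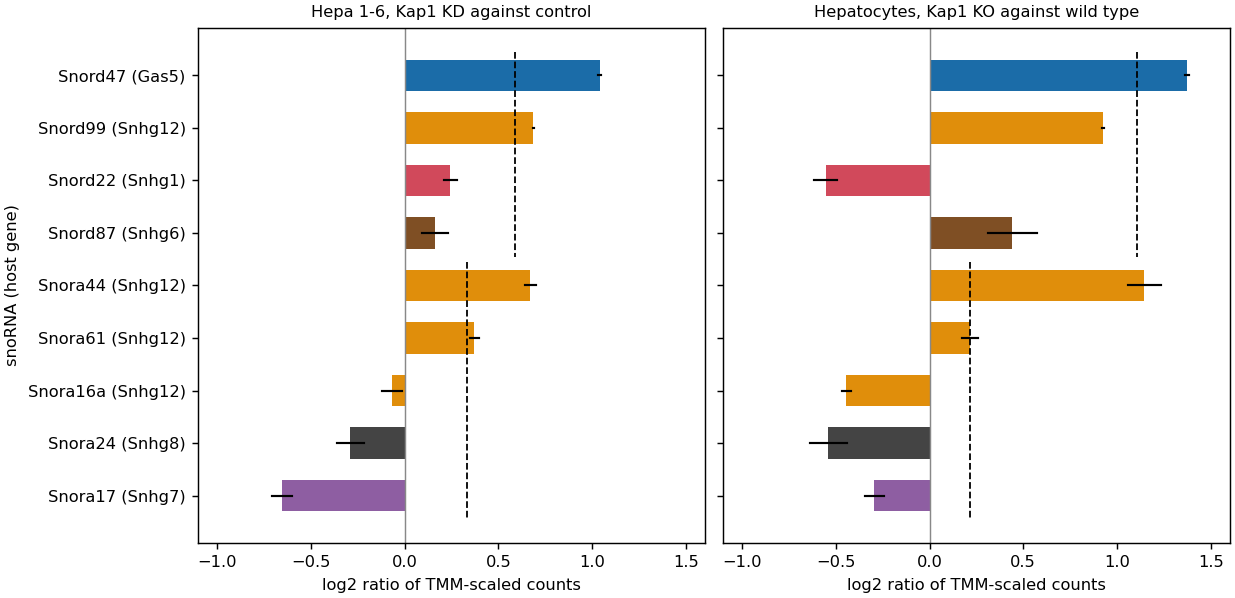
Log2 ratios of TMM-scaled counts (x) for the 9 hosted snoRNAs, coloured by host, in Hepa 1-6 cells (left, Kap1 KD against control) and hepatocytes (right, Kap1 KO against wild type), with 1 library per group. Short black lines are 95% intervals from counting error, and dashed lines are the medians of all Snord (upper rows) and all Snora (lower rows) sequences. Snord47 is the highest in both panels, and Snora16a, Snora24 and Snora17 lie below 0 in both.

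Between the cell types, 8 of the 9 hosted snoRNAs had the same sign in both contrasts, 5 higher and 3 lower, as did 78 of all 92 snoRNA sequences used in both. Snora16a, Snora17 and Snora24 were 3 of only 5 among these 92 that were lower in both, a subset noticed after the values were seen. The contrasts share no library, but differ in cell type, in knockdown against knockout and in the kit that removed ribosomal RNA. The classes differ in length, and the listed C/D and H/ACA medians above moved apart in both. The part of length in the ratios was not tested.

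The 4 snoRNAs of Snhg12 allow a comparison that needs no scaling between libraries, since each share is taken within 1 library. They differ in length and class, with 74 bases in Snord99 and 136 in Snora16a, and the part of this in the shares was not tested. Of the counts of these 4, Snord99 took 92.5% in control and 93.7% in Kap1 KD Hepa 1-6 cells, and 94.6% in wild-type and 97.4% in Kap1 KO hepatocytes. Snora16a took 0.97% (Wilson 95% interval 0.95 to 0.99) in control and 0.58% (0.57 to 0.60) in Kap1 KD Hepa 1-6 cells, and 4.01% (3.97 to 4.06) in wild-type and 1.60% (1.58 to 1.62) in Kap1 KO hepatocytes. Snora44 stood at 2.27% and 2.27% in Hepa 1-6 cells and at 0.23% and 0.27% in hepatocytes. The count of Snord99 per count of Snora16a was 95.4 in control and 161 in Kap1 KD Hepa 1-6 cells, and 23.6 in wild-type and 60.8 in Kap1 KO hepatocytes. Snora44 outnumbered Snora16a by 2.34 to 1 in control Hepa 1-6 cells, whereas in wild-type hepatocytes it had 0.056 counts for each count of Snora16a. These differences exceed counting error, except for Snora44 in Hepa 1-6 cells. Its Wilson 95% intervals overlap there, at 2.24 to 2.30 in control and 2.24 to 2.31 in Kap1 KD cells. With 1 library per group, none of the differences has a replicate error to be set against.

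Set beside the hosts, the snoRNAs did not share one direction. The exon counts of Snhg12 in polyadenylated RNA had a log2 fold change of -0.35 (standard error 0.44). Its snoRNAs had ratios from -0.066 to 0.69 in the same line. Gas5 stood at -0.29 (standard error 0.52) and its Snord47 at 1.04, whereas Snhg7 stood at -0.38 (standard error 0.64) and its Snora17 at -0.65. The mRNA and small RNA tables were scaled separately and come from different RNA preparations, so these values are given side by side and were not tested against each other.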

How the data were processed

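The authors aligned mRNA reads to mm9 with TopHat2 2.0.11, 1 alignment per read, and deposited HTSeq (0.6.1) counts per gene. For small RNA they deposited counts per tRNA or snoRNA sequence, and beside these a normalized signal (the count divided by 1 factor per library, also per kilobase), which was not used here. All 22 columns were mapped to samples by name, and the titles number 1 sample per mRNA group as 2 and the other was taken as 1. Files of the other assays are not analysed here.

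Gene names and coordinates came from the GENCODE vM1 annotation of mm9, which matched 21806 of 21915 identifiers. The mRNA counts were tested over 14142 genes by the quasi-likelihood test of edgeR 4.0.16 (group as the only term, TMM, low counts removed by filterByExpr) in R 4.3.3, with DESeq2 1.42.0 as an alternative. A call needed a 1.5-fold change and an adjusted p under 0.05. Each standard error was obtained by dividing the fold change on the log2 scale by √F. CPM plus 0.1 was used for changes between same-numbered samples, which understates the change of low genes. Small RNA ratios used TMM over all sequences with counts, 0.5 added to each count and at least 50 counts summed over the pair, with no test.

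Members and lists were chosen with earlier results of these data known. Named were all members, the 9 hosted snoRNAs in the small RNA tables, Trim28, the 2 genes with the largest absolute log2 fold change of each list and the 5 genes nearest in profile. Markers and the 7SK loci were named as quality checks. Intervals allow for counting error alone, as the reads carry no molecular identifiers and may be copies of one molecule. The fit and the ratios were tested on simulated data. One simulation of mRNA counts gave both groups the same replicate difference, that of these samples. In it 200 of 14142 genes were changed by 1.5 on the log2 scale. The fit without a replicate term recovered 0 of them, and the fit with one recovered 191 with 2 false calls. With no replicate difference simulated, both fits recovered 191. As the simulated replicate difference was identical in both groups, these counts cannot show how either fit did on the real samples. Changes as small as those of the hosts were not simulated. Alternatives covered the test, scaling, filter, replicate block, thresholds, pseudocount, gene length, minimum count and omission of single samples. Those with GC content, DESeq2 with the block, and the block without the filter were chosen after seeing the data.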

Additional observations from a re-analysis of the deposited data

Results flagged for a closer look

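Snord22, the snoRNA of Snhg1, had log2 ratios of opposite sign in the contrasts, 0.24 for Kap1 KD against control in Hepa 1-6 cells and -0.55 for Kap1 KO against wild type in hepatocytes. With 1 library per group the difference was not tested. It ranked 49 of 60 and 61 of 62 among the Snord sequences, and scaling by total counts gave -0.56 and -1.72, with no change of sign between the cells.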

How the results depend on the processing

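The median log2 fold change of the hosts kept its sign under each change of test, scaling and filter, but ranged from -1.17 to 0.37 when samples were left out in turn, with the lone sample of a group assumed to vary like the others. Without control replicate 1 the values were 0.37 for Gas5, 0.38 for Snhg1, 0.19 for Snhg5, 0.42 for Snhg7, 0.15 for Snhg12, 0.59 for Snora16a, 0.25 for Snora24 and 0.81 for Snord87, all above 0. Without Kap1 KD replicate 2 they were 0.15 for Gas5, 0.15 for Snhg7, 0.0062 for Snhg12, 0.53 for Snora16a and 0.65 for Snord87, and below 0 at -0.0038 for Snhg1, -0.042 for Snhg5 and -0.14 for Snora24. The lowest values over samples left out were -0.90 for Gas5, -1.31 for Snhg1, -1.20 for Snhg5, -1.17 for Snhg7, -0.81 for Snhg12, -1.90 for Snora16a, -0.83 for Snora24 and -2.05 for Snord87. No host was called under any of these settings. The count of called genes was 0 as reported, 3 with DESeq2, and between 3 and 65 with a sample left out, and the causes were not tested.

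Samples of the same number deviated together from their group means (correlation 0.81 across genes), but no label says what the number marks, so the replicate block was not used above. With the replicate block edgeR called 631 genes, 625 without the low-count filter, and DESeq2 called 231. The blocked log2 fold changes were -0.28 for Gas5, -0.50 for Snhg1, -0.51 for Snhg5, -0.37 for Snhg7 and -0.34 for Snhg12, with adjusted p of 0.0021, 0.0020, 0.00054, 0.091 and 0.032 in edgeR, and none reached 1.5-fold. That fit has 1 residual degree of freedom. DESeq2 with the block gave adjusted p of 0.12, 0.16, 0.088, 0.52 and 0.34 in the same order. Trim28 was called with the block, by DESeq2 and with each sample left out, and was not called in the edgeR test as reported.

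Scaling small RNA by total counts moved the median of the 9 hosted snoRNAs to -0.56 in Hepa 1-6 cells and -0.95 in hepatocytes. Median-of-ratios scaling, 5 added to each count and other count minimums left both medians above 0. Depth limits the mRNA values with the fewest counts, such as 86 for Snhg7 and 4 for Snora16a in Kap1 KD replicate 2.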
